A study of Mus musculus with 9 samples.

Results

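The 10 genes described here carry cytokine signals of the CNTF and LIF family into cells, and were taken from the count table by gene name: Lif and Cntf, the receptor genes Il6st, Lifr, Cntfr and Osmr, the kinase genes Jak1 and Jak2, the transcription factor gene Stat3 and the inhibitor gene Socs3. All 10 were among the 50764 genes of the table, and 8 of the 10 had enough counts to be tested. RNA was measured in small lots of GFP-positive cells labelled as retinal ganglion cells, which send the eye's output to the brain through the optic nerve. The cells came from adult male mice labelled WT that had received AAV2, a gene-carrying virus, in the vitreous, and were collected 14 days after optic nerve crush, with the injection also given as 14 days. The labels name 3 groups of 3 libraries: AAV carrying Olig2, AAV carrying Olig3, and AAV carrying GFP alone. Virus and crush were therefore shared by all 3 groups, the GFP group included, and no uncrushed or uninjected retina was analysed here. Both factors belong to the basic helix-loop-helix class and are known for setting neuron and oligodendrocyte fates in the spinal cord. Which promoter drove the transgenes is not stated in the sources used here. Nothing in the labels ties the 3 libraries of a group to separate mice. The p-values below therefore set group differences only against the variation between these libraries, which may be technical. Ganglion cells were enriched on beads against CD90.2, the product of Thy1, and picked by hand under a microscope, and the series title writes Olig1/2 where the sample labels write Olig2 or Olig3.

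LIF and CNTF are secreted cytokines. Both signal through the receptor chain gp130, the product of Il6st, paired with the LIF receptor, and CNTF binds first to the CNTF receptor alpha chain. The JAK kinases bound to these chains then phosphorylate STAT3, which enters the nucleus and activates target genes, among them Socs3, whose product blocks the same kinases and receptors. In the retina, Müller glia make LIF and CNTF after injury, and in mice deletion of Socs3 in ganglion cells, or added CNTF, increases axon regrowth after optic nerve crush.

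Socs3 is the feedback target of the pathway, so the window at its RefSeq start is shown for the letters that STAT dimers are known to bind. RefSeq windows from 250 bases before to 50 bases after each gene's start, on GRCm38.p6, were searched for TTCNNNGAA, a palindrome that reads the same on both strands. Of the 10 genes, all of which had a window, 1 held the motif, and that was Socs3. Of all 32851 windows in the table, 2726 held it, or 8.30%, and of all 27025 genes with a window, 2582, or 9.55%, held it in any window. The stretch below is chr11:117969472-117969560 on the minus strand, written 5′ to 3′ with the motif in capitals, which begins 154 bases before the RefSeq start and lies in no GENCODE exon of Socs3. It is inside the GENCODE span of the gene, in an intron of a longer processed transcript that starts further upstream.
Socs3: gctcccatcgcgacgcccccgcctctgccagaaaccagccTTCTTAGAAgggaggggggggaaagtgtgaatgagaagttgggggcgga
Among the 17 of 20 listed STAT3 target genes with a window, 2 held the motif: Gfap as TTCCAGGAA and Icam1 as TTCCCGGAA. These matches are letters in a window and say nothing of binding in these cells.

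The libraries held 5355691 to 6979851 counts each, so that 3 counts correspond to 0.381 to 0.750 CPM (counts scaled to a fixed library total, with TMM factors), the unit used below unless stated. Olig2 transcripts had 114, 97 and 21 counts in Olig2 libraries, 6, 4 and 0 in Olig3 libraries and 0 in all 3 GFP libraries, and Olig3 transcripts had 172, 113 and 597 counts in Olig3 libraries, 0, 5 and 7 in Olig2 libraries and 13, 0 and 40 in GFP libraries. Olig3 libraries 1 and 3 had the fewest detected genes, 16188 and 14434, against 18184 to 21338 in the other 7. The nuclear RNA Malat1 took 11.7% and 6.15% of the counts in Olig2 libraries 2 and 3 and 8.54% in Olig3 library 2, against 2.65% to 4.14% in the other 6. Pairs of libraries were also compared by chi-square per degree of freedom, which is lower where counts are more alike. Olig3 library 2 had 19.2 and 19.4 with Olig2 libraries 2 and 3, but 86.1 and 113 with Olig3 libraries 1 and 3. The lowest value within a group was 29.5, for Olig2 libraries 2 and 3. The 14 ganglion cell markers summed to 255 to 475 CPM (here without TMM scaling) in Olig2 libraries, 203 to 362 in Olig3 libraries and 976 to 2194 in GFP libraries. Of the 13 tested, 12 had a log2 change below 0 with Olig2 and 11 with Olig3 against GFP. Isl1, also in the bipolar list below, was higher in every Olig library than in any GFP library. Pou4f3 was at 0 in every Olig2 library, but had only 22, 0 and 35 counts in GFP libraries. The 12 rod markers summed to 78227 to 142933 CPM in Olig2 libraries, 58611 to 154961 in Olig3 libraries and 46081 to 68257 in GFP libraries, so transcripts of another cell type were abundant in all groups. The 12 Müller glia markers summed to 3419 to 4630 CPM in Olig2 libraries, 1065 to 4170 in Olig3 libraries and 4285 to 8173 in GFP libraries. All 12 were tested, and 9 had a log2 change below 0 with Olig2 and 11 with Olig3 against GFP. Vim (log2 change -1.34 with Olig2 and -2.99 with Olig3), Slc1a3 and Sox9 were lower in every Olig library than in any GFP library (TMM-scaled). Glul went the other way with Olig2, and was higher in every Olig2 library than in any GFP library. The 11 microglia and macrophage markers summed to 75.5 to 227 CPM in Olig2 libraries, 85.0 to 215 in Olig3 libraries and 35.4 to 181 in GFP libraries. Of the 11, all tested, 2 had a log2 change below 0 with Olig2 and 4 with Olig3 against GFP. Tmem119 was at 0 in every GFP library, but had only 0, 10 and 11 counts in Olig2 libraries and 0, 35 and 0 in Olig3 libraries. The 10 bipolar cell markers summed to 990 to 1773 CPM in Olig2 libraries, 974 to 1642 in Olig3 libraries and 805 to 893 in GFP libraries, without overlap between GFP and the others. The 8 lens markers summed to 2.39 to 5.17 CPM in Olig2 libraries, where Crygd was at 0, 0.508 to 339 in Olig3 libraries and 91.1 to 3754 in GFP libraries. Among these lists, the ganglion cell and bipolar cell sums separated GFP from all 6 Olig libraries, as the Socs3, Stat3 and Il6st levels below did. The part of any of these differences in the results below was not tested.

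**Figure D1:**
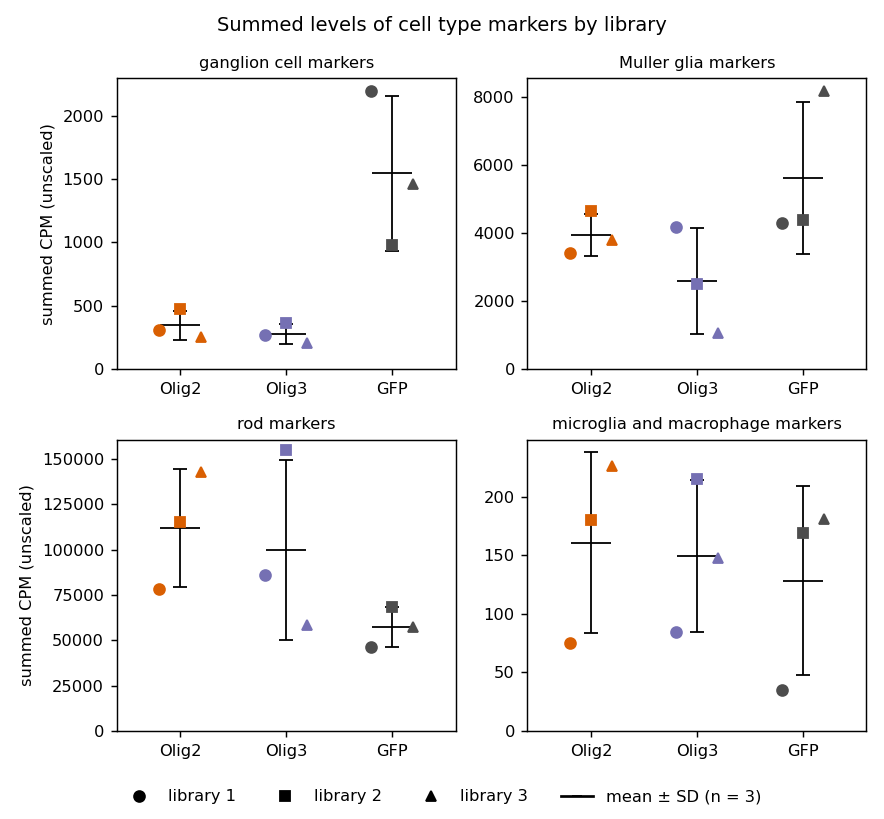
Summed CPM without TMM scaling (vertical axis) of 4 cell type marker lists in Olig2, Olig3 and GFP libraries. Points are libraries and bars give the mean ± SD of 3. Ganglion cell markers are highest in the 3 GFP libraries (976 to 2194 CPM), and rod markers are highest in Olig3 library 2 (154961 CPM).

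Stat3, the receptor chain gene Il6st and the feedback inhibitor gene Socs3 were each lower in all Olig2 and all Olig3 libraries than in any GFP library. Lifr and Jak1 had similar means in the 3 groups, and the ligand genes Lif and Cntf were at or near 0. None of the 8 tested genes passed the test in any comparison (edgeR quasi-likelihood F test, Benjamini-Hochberg adjusted p below 0.05 over all 15609 tested genes). Over all genes, 0.0513% were called for Olig2 against GFP, 0.205% for Olig3 against GFP and 0.0384% for Olig3 against Olig2, so few genes of any kind passed. In these bulk lots of cells, fewer cells of a type and less RNA per cell cannot be told apart.

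**Figure D2:**
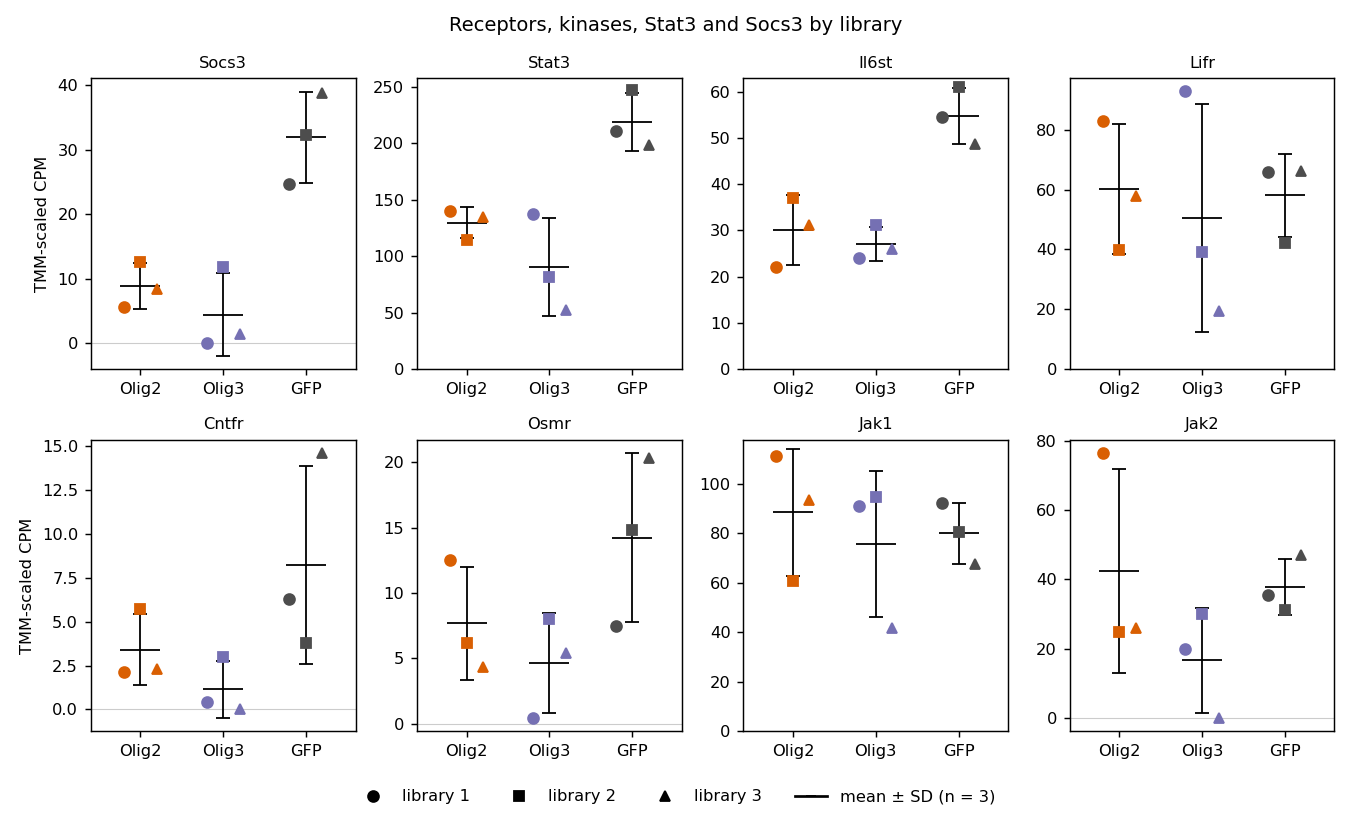
TMM-scaled CPM (vertical axis) of the 8 tested genes in Olig2, Olig3 and GFP libraries. Points are libraries, with a symbol for each library number, and bars give the mean ± SD of 3. Socs3, Stat3 and Il6st are lower in every Olig2 and Olig3 library than in every GFP library, while Lifr and Jak1 overlap.

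Socs3 encodes the suppressor of cytokine signalling that STAT3 induces, and lies at chr11:117966079-117970047 (mm10, minus strand, as all positions below are on mm10 from GENCODE M21). It had 5.56, 12.6 and 8.43 CPM in Olig2 libraries, 0, 11.8 and 1.47 CPM in Olig3 libraries, and 24.7, 32.4 and 38.8 CPM in GFP libraries. Its counts were 39, 53 and 47 in Olig2 libraries, 0, 47 and 10 in Olig3 libraries and 165, 255 and 290 in GFP libraries. Every GFP library was above every Olig library, while the Olig3 libraries spread from 0 to a level within the range of the Olig2 libraries. The Olig2 mean of 8.88 ± 3.56 CPM was 3.60-fold below the GFP mean of 32.0 ± 7.08 CPM (SD, n = 3 each; log2 change -1.85, SE 1.14, edgeR adjusted p = 1.00). The Olig3 mean of 4.41 ± 6.41 CPM was 7.25-fold below the GFP mean (log2 change -2.89, SE 1.19, edgeR adjusted p = 0.364). Olig3 library 2 decided much of this spread: without it the log2 change was -5.41 and edgeR's adjusted p was 0.0450. Without the 2 libraries with the fewest genes, Olig3 libraries 1 and 3, which leaves 1 Olig3 library, the log2 change was -1.43.

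Stat3, the transcription factor gene of the pathway, lies at chr11:100885098-100939540 on the minus strand, with 72 of its 9527 exon bases shared with Stat5a on the other strand. It had 140, 114 and 135 CPM in Olig2 libraries, 138, 81.3 and 52.8 CPM in Olig3 libraries, and 211, 248 and 198 CPM in GFP libraries. The Olig2 libraries lay close together below all GFP libraries, and the Olig3 libraries reached from the Olig2 range down to the lowest value of the 9. The mean was 130 ± 13.6 CPM in Olig2 libraries and 219 ± 25.6 CPM in GFP libraries (SD, n = 3 each), 1.69-fold lower, with a log2 change of -0.75 (SE 0.306, edgeR adjusted p = 0.943). In Olig3 libraries the mean was 90.6 ± 43.1 CPM, 2.42-fold below GFP, with a log2 change of -1.27 (SE 0.309, edgeR adjusted p = 0.145). DESeq2 gave an adjusted p of 0.00815 for Olig3 against GFP. Over the 20 alternatives that difference's log2 change ranged from -1.71 to -0.99 and its adjusted p from 0.00215 to 0.373.

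Il6st, the gene of the shared receptor chain gp130, lies at chr13:112464070-112510086 on the plus strand. Its level was 22.1, 37.0 and 31.2 CPM in Olig2 libraries, 24.0, 31.3 and 26.0 CPM in Olig3 libraries, and 54.5, 60.9 and 48.7 CPM in GFP libraries. The Olig2 and Olig3 libraries covered much the same range, and all 6 were below the lowest GFP library. The mean was 30.1 ± 7.48 CPM in Olig2 libraries and 54.7 ± 6.10 CPM in GFP libraries, 1.82-fold lower (SD, n = 3 each; log2 change -0.86, SE 0.326, edgeR adjusted p = 0.881). In Olig3 libraries it was 27.1 ± 3.74 CPM, 2.02-fold below GFP (log2 change -1.02, SE 0.327, edgeR adjusted p = 0.268).

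Lifr encodes the LIF receptor, at chr15:7090614-7197489 on the plus strand. It had 83.0, 39.8 and 58.0 CPM in Olig2 libraries, 93.1, 39.0 and 19.5 CPM in Olig3 libraries, and 65.8, 42.1 and 66.1 CPM in GFP libraries. The groups overlapped, and the highest and the lowest of the 9 values were both in Olig3 libraries. The log2 change was 0.06 (SE 0.491) for Olig2 against GFP and -0.20 (SE 0.492) for Olig3 against GFP, with edgeR adjusted p of 1.00 and 0.908.

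Cntfr, the gene of the CNTF receptor alpha chain, lies at chr4:41657498-41697089 on the minus strand and had few counts, with the Olig3 libraries nearest to the limit of detection. It had 15, 24 and 13 counts in Olig2 libraries, 3, 12 and 0 counts in Olig3 libraries, and 42, 30 and 109 counts in GFP libraries. That was 2.14, 5.72 and 2.33 CPM in Olig2 libraries, 0.442, 3.00 and 0 CPM in Olig3 libraries, and 6.29, 3.81 and 14.6 CPM in GFP libraries. All Olig3 libraries were below all GFP libraries, and Olig2 overlapped with GFP. The log2 change was -1.28 (SE 1.39, edgeR adjusted p = 1.00) for Olig2 against GFP and -2.87 (SE 1.49, edgeR adjusted p = 0.481) for Olig3 against GFP.

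Osmr encodes the oncostatin M receptor, which pairs with gp130, and lies at chr15:6813577-6874969 on the minus strand. It had 12.6, 6.20 and 4.31 CPM in Olig2 libraries, 0.442, 8.004 and 5.43 CPM in Olig3 libraries, and 7.48, 14.9 and 20.4 CPM in GFP libraries. Both Olig groups overlapped with GFP in 1 library. The log2 change was -0.88 (SE 0.986) for Olig2 against GFP and -1.63 (SE 1.01) for Olig3 against GFP, with edgeR adjusted p of 1.00 and 0.562.

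Of the kinases that gp130 receptors carry, Jak1 lies at chr4:101152367-101265282 on the minus strand. It had 111, 60.8 and 93.5 CPM in Olig2 libraries, 91.0, 94.8 and 41.7 CPM in Olig3 libraries, and 92.2, 80.6 and 67.5 CPM in GFP libraries, and all groups overlapped. Its log2 change of 0.15 (SE 0.338) for Olig2 and -0.08 (SE 0.338) for Olig3 against GFP was smaller than its SE, and either sign turned when single libraries were left out. Jak2, at chr19:29251828-29313080 on the plus strand, had 76.5, 24.8 and 25.8 CPM in Olig2 libraries, 19.8, 30.0 and 0 CPM in Olig3 libraries, and 35.5, 31.2 and 47.0 CPM in GFP libraries. Olig2 library 1 was above all GFP libraries and the other 2 were below them, while all 3 Olig3 libraries were below GFP and Olig3 library 3 had no Jak2 count. The Jak2 log2 change was 0.16 (SE 1.02) for Olig2 against GFP and -1.20 (SE 1.04) for Olig3 against GFP, with edgeR adjusted p of 1.00 and 0.691.

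Both ligand genes failed the filter on low counts. Lif, at chr11:4257557-4272514 on the plus strand, had 0, 2 and 4 counts in Olig2 libraries, 0, 9 and 0 counts in Olig3 libraries, and 8, 0 and 31 counts in GFP libraries. Pooled, these were 6 counts with Olig2, 9 with Olig3 and 39 with GFP, of which 31 came from 1 GFP library. With no filter its edgeR adjusted p was 0.925 for Olig2 and 0.878 for Olig3 against GFP, and 0.991 for Olig3 against Olig2. Cntf, at chr19:12763660-12765632 on the minus strand, had 0 counts in all 9 libraries, which allows at most 3 counts, or 0.381 to 0.750 CPM, in a library, for counting error only. Of its 1073 exon bases, 847, or 78.9%, also belong to Zfp91 on the same strand, which had 170 to 497 counts, so this zero limits only reads that the counting gave to Cntf alone.

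**Figure D3:**
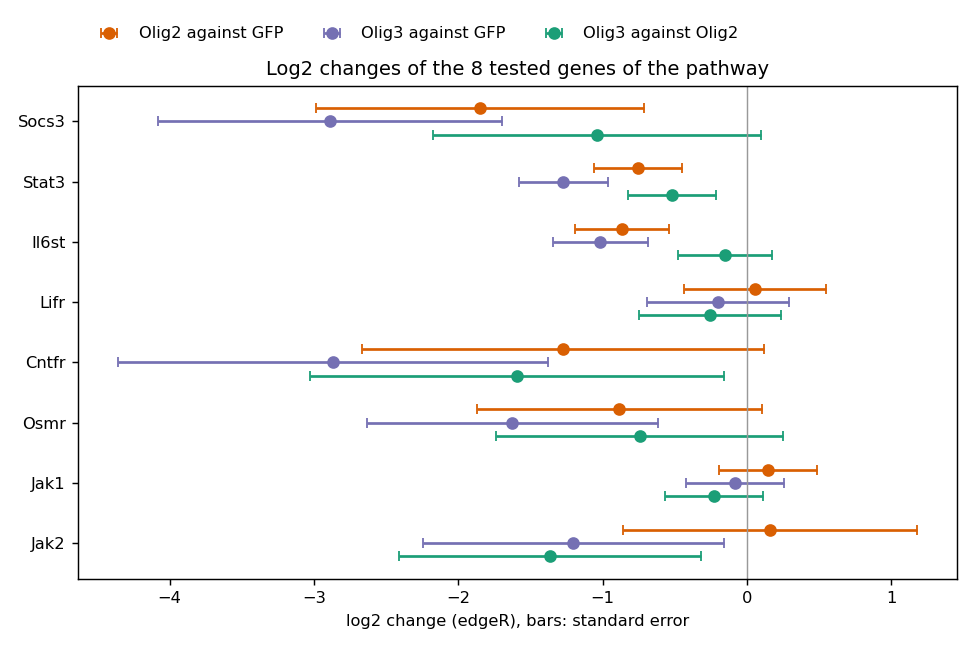
Log2 change from edgeR (horizontal axis) with its standard error for the 8 tested genes in 3 comparisons. Against GFP, Stat3 and Il6st lie below 0 by more than 2 standard errors with Olig2 and with Olig3, and Socs3 does so with Olig3; no gene passed the adjusted test.

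Counted together, for Olig2 against GFP 3 of the 8 tested genes (Socs3, Stat3 and Il6st) did not overlap with GFP and were lower, where 8.35% of all tested genes were so, and 2 of 8 (Stat3 and Il6st) had an unadjusted p below 0.05 with a lower level, against 2.08% of all genes. Of the 8, 5 had a log2 change below 0, against 50.0% of all genes, and the median was -0.81, against -0.00. For Olig3 against GFP, 5 of 8 (Socs3, Stat3, Il6st, Cntfr and Jak2) did not overlap and were lower, against 10.0% of all genes, and 3 of 8 (Socs3, Stat3 and Il6st) had an unadjusted p below 0.05, against 6.37%. All 8 had a log2 change below 0, against 52.9% of all genes, and their median was -1.24, against -0.06. The 2 comparisons share their GFP libraries, so their likeness is not independent. DESeq2 called 0 of 8 for Olig2 and 1 of 8 (Stat3) for Olig3 against GFP, and limma-voom called 0 of 8 in both. DESeq2 also called more genes of any kind than edgeR in both comparisons, with the counts given below. Without Olig3 libraries 1 and 3, which leaves 1 Olig3 library, 7 of the 9 genes then tested were below 0 for Olig3 against GFP, against 54.8% of all genes in that fit. Their median was -0.79, against -0.10. Without the 3 libraries richest in Malat1, 9 of 9 were below 0 for Olig3 against GFP, against 57.5% of all genes in that fit. The median of these 9 was -1.93, against -0.24. For Olig2 against GFP the same fit leaves 1 Olig2 library, assumed to vary like the others. It had 6 of 9 below 0, against 55.2%, with a median of -0.64 against -0.11. None was called for Olig3 against GFP in the fit without the 3 libraries richest in Malat1.

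Olig3 against Olig2 gave no separation for these genes. No tested gene was without overlap, against 8.69% of all genes that did not overlap and were lower, and 0 of 8 had an unadjusted p below 0.05, against 3.05% of all genes that had one and were lower. DESeq2 and limma-voom also called 0 of 8. All 8 log2 changes were below 0, against 54.0% of all genes, with a median of -0.63 against -0.06. Socs3 differed by -1.04 (SE 1.14), Stat3 by -0.52 (SE 0.306) and Il6st by -0.15 (SE 0.326), with edgeR adjusted p of 0.935, 0.933 and 0.968. The fit without Olig3 libraries 1 and 3 leaves 1 Olig3 library, assumed to vary like the others. There 4 of 9 genes then tested were below 0, against 53.6% of all genes, and Socs3 was 0.42 higher with Olig3.

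Levels of different genes were compared as TMM-scaled CPM per kilobase of exon. In Olig2 libraries the order was Stat3 at 13.6 ± 1.43, Jak1 at 12.2 ± 3.54, Jak2 at 8.42 ± 5.87, Lifr at 5.59 ± 2.01, Socs3 at 3.07 ± 1.23, Il6st at 2.71 ± 0.674, Cntfr at 1.22 ± 0.724 and Osmr at 0.635 ± 0.357 (mean ± SD, n = 3). Each of these overlapped with its neighbour, and Lif, at 0.0915, lay below Osmr in every library. In Olig3 libraries Jak1 at 10.5 ± 4.10 and Stat3 at 9.51 ± 4.53 led, followed by Lifr at 4.69, Jak2 at 3.30, Il6st at 2.44, Socs3 at 1.52, Cntfr at 0.413, Osmr at 0.382 and Lif at 0.172, and all neighbours overlapped. In GFP libraries Stat3, at 23.0 ± 2.68, was above every value of Jak1 (11.1 ± 1.71) and Socs3 (11.1 ± 2.45), which overlapped with each other and with Jak2 (7.53 ± 1.62). Below them came Lifr at 5.39 ± 1.28, whose values were all under those of Jak2, then Il6st at 4.93 ± 0.550, Cntfr at 2.96 ± 2.03, Osmr at 1.17 ± 0.533 and Lif at 0.410 ± 0.491, each overlapping with the next. Cntf was at 0 in all. Socs3 thus stood level with Jak1 in GFP libraries and below Jak1 in every Olig2 and Olig3 library.

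**Figure D4:**
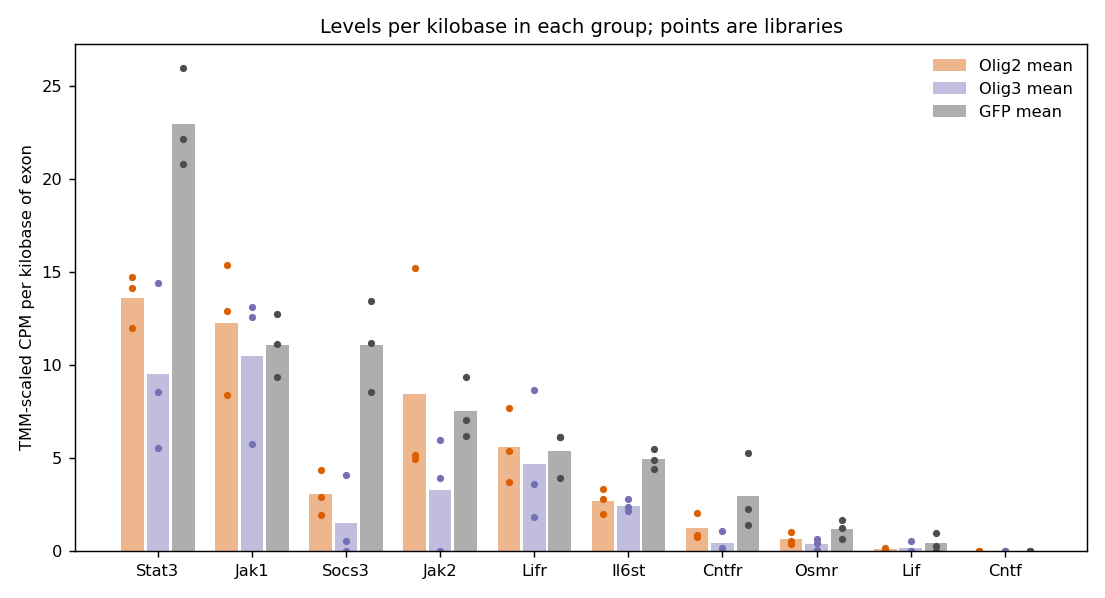
TMM-scaled CPM per kilobase of exon (vertical axis) of all 10 genes. Bars are means of 3 libraries for Olig2, Olig3 and GFP, and points are libraries. Stat3 is the highest gene in GFP libraries at 23.0, and Cntf is at 0 in all 9.

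Because Socs3 is induced by STAT3, its counts were also set against those of Stat3 in the same library, a ratio that does not depend on scaling. There were 3.97, 11.0 and 6.25 Socs3 counts per 100 Stat3 counts in Olig2 libraries, 0, 14.5 and 2.78 in Olig3 libraries, and 11.7, 13.1 and 19.6 in GFP libraries. All Olig2 libraries were below all GFP libraries, and Olig3 library 2 lay within the GFP range. Across all 9 libraries, as a description of points that share library, depth and group, the log2 level of Socs3 had a Pearson r of 0.87 with Osmr, 0.85 with Cntfr, 0.79 with Il6st, 0.51 with Stat3 and -0.07 with Lifr. Lifr had an r of 0.78 with Jak1 and with Jak2, which had 0.81 with each other, and the lowest of all pairs was Lifr with Osmr, at -0.21. Among 12729 named genes compared over the 9 libraries, those most like Socs3 were Camk1, Mlycd and Sbno2 (r of 0.992, 0.984 and 0.982). Those most like Stat3 were Nek6, Jak3 and Dtx3l (0.981, 0.973 and 0.961), those most like Il6st were Ccdc74a, Nfatc1 and Fbxo43 (0.959, 0.956 and 0.948), and those most like Lifr were Cnot6l, Zfp956 and Ubl4a (0.976, 0.957 and 0.954).

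The other genes of the pathway were described from 5 lists, chosen with earlier results of these data known. Of 20 known STAT3 target genes, all tested, 1 fell with Olig3 against GFP (edgeR adjusted p below 0.05, which 0.109% of all genes passed in this direction) and 0 rose. Of the 20, 12 did not overlap and were lower, against 10.0% of all genes, and 10 had an unadjusted p below 0.05 with a lower level, against 6.37%. The median log2 change was -2.02, against -0.06 for all genes. For Olig2 against GFP none was called, and 3 had an unadjusted p below 0.05 and were lower, against 2.08% of all genes. Without overlap, 4 were lower (8.35% of all genes were so) and 1 was higher (8.47% of all genes were so). The median was -0.79, against -0.00 for all genes. DESeq2 called 2 for Olig3 and 1 for Olig2 against GFP, limma-voom 1 and 0. More genes of any kind were also called with DESeq2 than with edgeR, with the counts given below. Without Olig3 libraries 1 and 3, which leaves 1 Olig3 library, 17 of 20 were below 0 for Olig3 against GFP, against 54.8% of all genes. The median there was -1.05. For Olig2 against GFP 3 were called in that fit, where more genes of any kind were called than with all libraries. Without the 3 libraries richest in Malat1, 18 of 20 were below 0 for Olig3 against GFP, against 57.5% of all genes. With no filter 7 were called for Olig3 and 5 for Olig2 against GFP, where 556 and 176 of all 29429 genes were called in either direction. For Olig3 against Olig2, 0 were called, 2 had an unadjusted p below 0.05 with a lower level (3.05% of all genes were so), and DESeq2 called 1 and limma-voom 0.

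Junb, an AP-1 transcription factor gene induced by gp130 cytokines, was the STAT3 target that fell. It had 77.5, 118 and 113 CPM in Olig2 libraries, 51.8, 73.0 and 42.7 CPM in Olig3 libraries, and 204, 239 and 286 CPM in GFP libraries. The 3 groups were fully apart, with Olig2 libraries between the others. The Olig3 mean was 55.8 ± 15.6 CPM and the GFP mean 243 ± 40.8 CPM, 4.36-fold lower (SD, n = 3 each; log2 change -2.13, SE 0.275, edgeR adjusted p = 0.0319). The Olig2 log2 change against GFP was -1.25 (SE 0.267, edgeR adjusted p = 0.338), and that of Olig3 against Olig2 was -0.88 (SE 0.267, edgeR adjusted p = 0.865). Of the Junb exon bases, 7.52% are shared with Prdx2 on the other strand, and whether the counting used strand is not stated in the sources used here.

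Fos, another AP-1 gene and immediate early gene, had 43.9, 127 and 93.8 CPM in Olig2 libraries, 15.9, 15.5 and 28.0 CPM in Olig3 libraries, and 60.5, 76.9 and 159 CPM in GFP libraries. Olig3 was below both other groups, which overlapped (log2 change -2.31 against GFP, SE 0.471, and -2.15 against Olig2, SE 0.470, edgeR adjusted p = 0.0839 and 0.439). Gfap, the intermediate filament gene of astrocytes and reactive Müller glia, had 7.28, 19.6 and 6.46 CPM in Olig2 libraries, 0, 27.3 and 0 CPM in Olig3 libraries, and 125, 78.6 and 129 CPM in GFP libraries. All 6 Olig libraries were below all GFP libraries, by a log2 change of -3.33 (SE 1.36) with Olig2 and -3.67 (SE 1.39) with Olig3, which did not pass (edgeR adjusted p = 0.943 and 0.329). The 6 astrocyte markers, a list that holds Gfap, summed to 192 to 390 CPM in Olig2 libraries, 195 to 496 in Olig3 libraries and 331 to 577 in GFP libraries. Of the 5 tested, 4 had a log2 change below 0 with Olig2 and 4 with Olig3 against GFP. The other, Slc1a2, was higher in every Olig library than in any GFP library (TMM-scaled). Pax2 was at 0 in every Olig2 library, but had only 1, 0 and 18 counts in GFP libraries. The Müller glia sums and marker directions are given above. The part of the astrocyte or Müller glia sums in the Gfap values was not tested.

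Another list held 6 retinal injury genes, of which Edn2, Fgf2 and Gfap are known in mice to need LIF for their induction in the degenerating retina. All 6 were tested, and Gfap is also in another list. Of the 6, 2 fell with Olig3 against GFP, against 0.109% of all genes, and 0 rose. Without overlap, 4 were lower, against 10.0% of all genes, and the median log2 change was -2.61, against -0.06. With Olig2 against GFP none was called, 3 had an unadjusted p below 0.05 and were lower (2.08% of all genes were so), and the median was -1.15. DESeq2 and limma-voom called 2 each for Olig3 and 0 for Olig2 against GFP. DESeq2 called more genes of any kind than edgeR in all 3 comparisons, and limma-voom did so for Olig3 against GFP, with the counts given below. Without Olig3 libraries 1 and 3, which leaves 1 Olig3 library, all 6 were below 0 for Olig3 against GFP, against 54.8% of all genes. The median there was -2.03. For Olig2 against GFP 5 of 6 were below 0 in that fit, against 51.1% of all genes, with a median of -1.14. Without the 3 libraries richest in Malat1, all 6 were below 0 for Olig3 against GFP, against 57.5% of all genes. That fit leaves 1 Olig2 library, and 5 of 6 were below 0 for Olig2 against GFP, against 55.2% of all genes. With no filter 4 were called for Olig3 and 2 for Olig2 against GFP, where 556 and 176 of all 29429 genes were called in either direction. For Olig3 against Olig2, edgeR called 0, DESeq2 1 and limma-voom 0. In that comparison 4 had an unadjusted p below 0.05 with a lower level (3.05% of all genes were so), and the median was -0.96.

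Edn2, the gene of endothelin 2, a signal that injured photoreceptors send to Müller glia, had 117, 114 and 119 CPM in Olig2 libraries, 9.29, 55.8 and 22.7 CPM in Olig3 libraries, and 200, 260 and 252 CPM in GFP libraries. The Olig2 libraries were within a few CPM of each other and stood between the other groups without overlap. The Olig3 mean of 29.3 ± 23.9 CPM was 8.12-fold below the GFP mean of 238 ± 32.7 CPM (SD, n = 3 each; log2 change -3.04, SE 0.493, edgeR adjusted p = 0.0363), while the Olig2 log2 change against GFP was -1.03 (SE 0.457, edgeR adjusted p = 1.00). Olig3 against Olig2 gave -2.01 (SE 0.476, edgeR adjusted p = 0.557).

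Fgf2, the gene of a growth factor that LIF induces in the retina, had 85.3, 42.2 and 87.6 CPM in Olig2 libraries, 40.7, 41.3 and 31.8 CPM in Olig3 libraries, and 126, 160 and 234 CPM in GFP libraries. GFP libraries were above all others, and the lowest Olig2 library was next to the highest Olig3 library. The Olig3 mean was 37.9 ± 5.29 CPM and the GFP mean 173 ± 55.0 CPM, 4.56-fold lower (SD, n = 3 each; log2 change -2.19, SE 0.335, edgeR adjusted p = 0.0363), and the Olig2 log2 change against GFP was -1.27 (SE 0.324, edgeR adjusted p = 0.451). Of the Fgf2 exon bases, 13.2% are shared with Nudt6 on the other strand or Gm43439. Gbp2, the gene of an interferon-inducible GTPase, had 50.9, 43.9 and 46.6 CPM in Olig2 libraries, 1.18, 8.25 and 0 CPM in Olig3 libraries, and 116, 11.4 and 52.2 CPM in GFP libraries. Its Olig3 libraries were below both other groups (log2 change -4.01 against Olig2, SE 1.13, edgeR adjusted p = 0.765).

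Whether the 3 falls with Olig3 passed depended on the libraries in the fit. A fit without Olig3 libraries 1 and 3 leaves 1 Olig3 library, assumed to vary like the others. Junb, Edn2 and Fgf2 passed in 9, 9 and 8 of 20 alternatives, with log2 changes of -2.37 to -1.72, -3.91 to -2.08 and -2.37 to -1.91, and adjusted p from 3.94e-10 to 0.231, 1.79e-17 to 0.180 and 3.16e-08 to 0.332. All 3 passed without Olig3 library 2 (adjusted p = 0.0104, 0.00787 and 0.0226), and without the 3 libraries richest in Malat1 Junb and Edn2 passed and Fgf2 did not (0.0446, 0.0192 and 0.0710). They did not pass when any other single library was left out, nor without Olig3 libraries 1 and 3 (adjusted p = 0.231, 0.0943 and 0.332), nor with only the Olig3 and GFP libraries in the fit (0.168, 0.180 and 0.168).

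**Figure D5:**
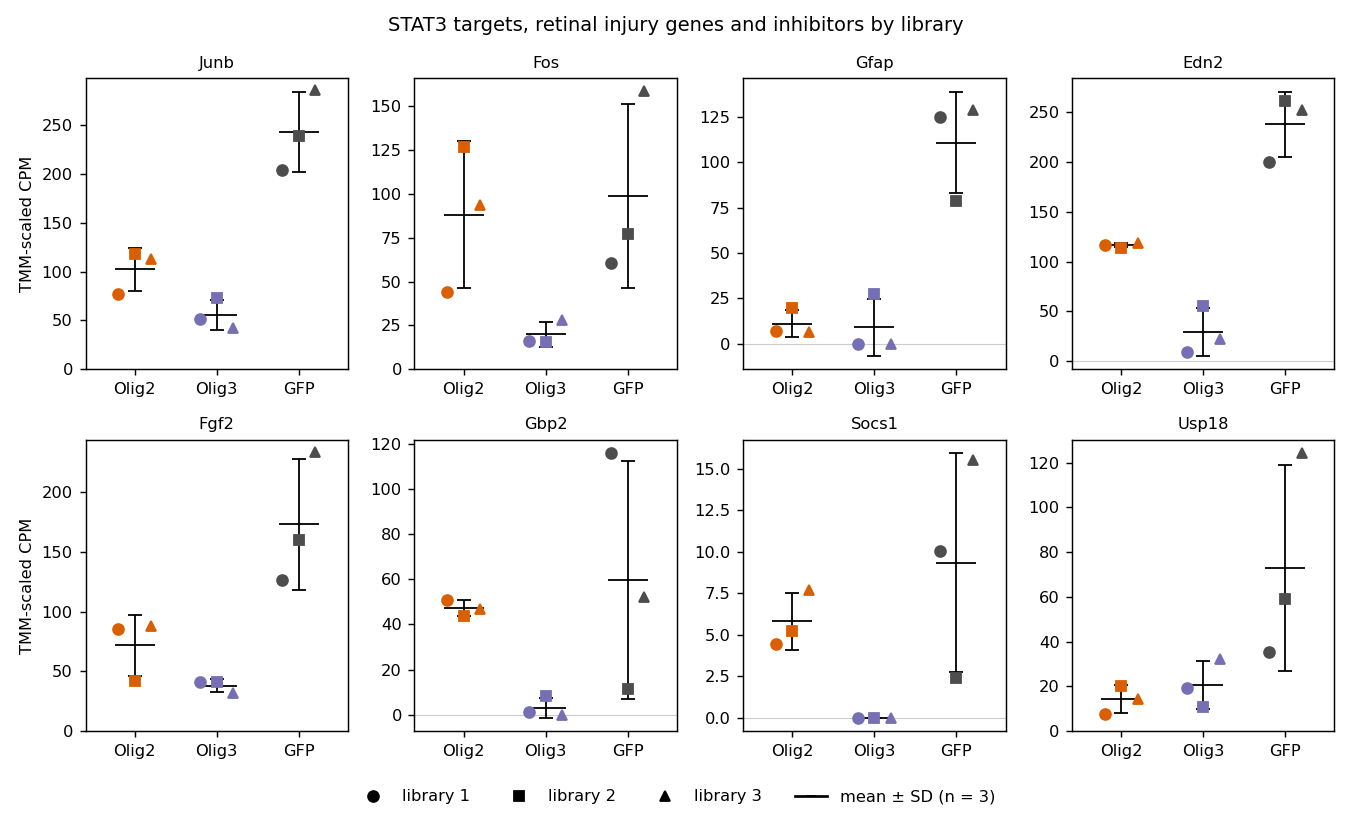
TMM-scaled CPM (vertical axis) of 8 named STAT3 target, injury and inhibitor genes in Olig2, Olig3 and GFP libraries, with points for libraries and the mean ± SD of 3. Junb, Edn2 and Fgf2 are lowest in the 3 Olig3 libraries, and Socs1 is at 0 in them.

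Among 16 inhibitors of the pathway, all tested, none was called in any comparison with edgeR. For Olig3 against GFP, 4 had an unadjusted p below 0.05 with a lower level (6.37% of all genes were so) and 1 with a higher level (5.76% of all genes were so), and the median was 0.31. For Olig2 against GFP, 1 was lower at an unadjusted p below 0.05 (2.08% of all genes) and the median was -0.05. For Olig3 against Olig2, 1 was lower (3.05% of all genes) and 1 higher (2.07% of all genes), with a median of 0.18. DESeq2 called 1 lower in each of the 3 comparisons, limma-voom called 0, and edgeR with no filter called 1 lower for Olig2 against GFP, 2 for Olig3 against GFP and 1 for Olig3 against Olig2. Of all 29429 genes, the fit with no filter called 176 for Olig2 and 556 for Olig3 against GFP in either direction. DESeq2 also called more genes of any kind than edgeR with the filter in all 3 comparisons, with the counts given below.

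Socs1, which inhibits JAK kinases as Socs3 does, had 4.42, 5.25 and 7.72 CPM in Olig2 libraries, 0 in all 3 Olig3 libraries, and 10.0, 2.41 and 15.5 CPM in GFP libraries. Pooled, it had 96 counts in Olig2 libraries, 0 in Olig3 libraries and 202 in GFP libraries, 19 of them in GFP library 2. With a floor of 3 counts over the group, Socs1 was at least 53.8-fold lower with Olig3 than with GFP and at least 33.6-fold lower than with Olig2. These bounds cover counting error only, not variation between libraries, and neither difference passed (edgeR adjusted p = 0.0858 and 0.439). Olig3 libraries 1 and 3 were also those with the fewest detected genes. Usp18, which blocks interferon receptor signalling, had 7.71, 20.3 and 14.4 CPM in Olig2 libraries, 19.0, 10.8 and 32.1 CPM in Olig3 libraries, and 35.5, 58.9 and 124 CPM in GFP libraries. All Olig libraries were below GFP (log2 change -2.37 with Olig2, SE 0.577, and -1.81 with Olig3, SE 0.563, edgeR adjusted p = 0.412 and 0.256). Ptpn1, a tyrosine phosphatase gene, averaged 30.5 ± 5.09 CPM in Olig2 libraries, 29.6 ± 7.51 CPM in Olig3 libraries and 50.0 ± 3.70 CPM in GFP libraries (SD, n = 3 each). All Olig libraries were below GFP (log2 change -0.71 with Olig2 and -0.76 with Olig3, edgeR adjusted p = 1.00 and 0.380). Pias1, the gene of a SUMO ligase that inhibits STAT proteins, averaged 206 ± 20.3 CPM in Olig2 libraries, 290 ± 58.4 CPM in Olig3 libraries and 197 ± 30.7 CPM in GFP libraries (SD, n = 3 each). It was the inhibitor with a higher level at an unadjusted p below 0.05 for Olig3 against GFP, where the libraries did not overlap (log2 change 0.56, edgeR adjusted p = 0.350), and its Olig3 and Olig2 libraries overlapped (log2 change 0.49, edgeR adjusted p = 0.933).

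Of 11 other receptor, kinase and STAT genes, 8 were tested and none was called in any comparison with edgeR. DESeq2 and edgeR with no filter each called 1 lower for Olig3 against GFP, and limma-voom called 0. The fit with no filter called 556 of all 29429 genes in that comparison, in either direction. DESeq2 also called more genes of any kind there than edgeR with the filter, with the counts given below. For Olig2 against GFP, 2 were lower at an unadjusted p below 0.05 (2.08% of all genes), with a median of -0.32. For Olig3 against GFP 3 were (6.37% of all genes), with a median of -1.24, and for Olig3 against Olig2 2 were (3.05%), with a median of -0.37. Stat2, the interferon-pathway STAT gene, had 28.1, 34.6 and 37.5 CPM in Olig2 libraries, 11.5, 33.0 and 28.5 CPM in Olig3 libraries, and 90.4, 48.1 and 88.5 CPM in GFP libraries. All Olig libraries were below GFP (log2 change -1.18 with Olig2, SE 0.413, and -1.64 with Olig3, SE 0.419, edgeR adjusted p = 0.788 and 0.158). Stat6, which acts downstream of interleukin 4, had 0, 1.67 and 0.897 CPM in Olig2 libraries, 0.147, 0.2501 and 1.61 CPM in Olig3 libraries, and 7.33, 6.60 and 19.1 CPM in GFP libraries, again without overlap (edgeR adjusted p = 0.978 and 0.344). Stat4, known from T cells, had 40 counts in Olig2 libraries and 1 in Olig3 libraries, beside T cell marker sums of 26.3 to 137 CPM in Olig2 libraries and 0 to 2.99 CPM in Olig3 libraries, where 7 of the 10 markers, Cd3d and Cd3e among them, were at 0; their part in the Stat4 counts was not tested.

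Other ligands of the family were scarce, and 3 of 9 were tested (Clcf1, Osm and Ebi3), none of them called by edgeR, DESeq2 or limma-voom in any comparison. At an unadjusted p below 0.05, 1 was lower with Olig3 than with GFP (6.37% of all genes were so) and 1 with Olig3 than with Olig2 (3.05%). It was Clcf1 in both cases, and none differed for Olig2 against GFP. Clcf1, the gene of a cytokine that binds the CNTF receptor, had 37, 5 and 5 counts in Olig2 libraries, 0, 1 and 2 counts in Olig3 libraries, and 5, 33 and 18 counts in GFP libraries, lowest in Olig3 (edgeR adjusted p = 0.406 against GFP and 0.933 against Olig2). Ebi3, a subunit of interleukin 27, had 9.27, 4.29 and 3.05 CPM in Olig2 libraries and 0.449, 2.03 and 1.20 CPM in GFP libraries, without overlap (log2 change 2.15, SE 1.34, edgeR adjusted p = 1.00). The 9 B and plasma cell markers summed to 2338 to 8956 CPM in Olig2 libraries, 95.04 to 233 CPM in Olig3 libraries and 131 to 262 CPM in GFP libraries, with Cd79a and Cd79b at 0 in every Olig3 and GFP library, and their part in the Ebi3 values was not tested. Osm, the oncostatin M gene, had 74, 1 and 26 counts in Olig2 libraries, 64, 0 and 0 in Olig3 libraries, and 0, 33 and 2 in GFP libraries, with wide overlap. Il6 had 24 counts in Olig2 library 1 and 0 in the other 8.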

How the data were processed

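Whole-number read counts per gene were deposited by the authors for 9 libraries. Per the submitters' processing notes, FastQC, HISAT2, HTSeq and mm10 were used. Per the labels' protocols, cDNA was made with SMART-Seq HT and 20 PCR cycles, with no mention of molecular identifiers, so limits from counts cover counting error only. The members and gene lists were chosen with earlier results of these data known.

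Here edgeR 4.0.16 (R 4.3.3) was fitted to the counts of all 9 libraries by group, with TMM scaling and filterByExpr, which left 15609 of 50764 genes, tested by the quasi-likelihood F test with Benjamini-Hochberg adjustment over all genes (threshold 0.05). Correlations used log2 CPM with a prior count of 2. Of the gene identifiers, 50712 matched GENCODE M21, which gave positions and exon lengths. Sequences are from RefSeq on GRCm38.p6. Named were all 10 genes, each called gene of the lists, the 2 smallest p per list and comparison, and the 3 genes most like Socs3, Stat3, Il6st and Lifr; some items under this rule are not reported here. The code was tested on simulated counts. Alternatives covered scaling, filter, DESeq2 1.42.0, limma-voom (limma 3.58.1), pairwise fits, a replicate block and left-out libraries.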

Additional observations from a re-analysis of the deposited data

How the results depend on the processing

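Of 537 log2 values of single genes recomputed over 20 alternatives, 480 kept their direction and side of the threshold, 34 no longer passed, 4 passed only under the alternative and 19 turned direction. Genes called for Olig2 against GFP (8) became 176 with no filter, 86 with DESeq2, 23 with the pair alone, 5 without the 3 libraries richest in Malat1 (Olig2 libraries 2 and 3, Olig3 library 2), 41 without the 2 with fewest detected genes (Olig3 libraries 1 and 3), and 0 to 24 with single libraries left out. For Olig3 against GFP (32) they became 556, 493 and, with the pair alone, 0, then 20, 0 and 0 to 505 in the same order, and 78 with limma-voom. For Olig3 against Olig2 (6) they became 140, 82 and 2, then 0 without the 2 libraries with fewest genes, 2 to 160 with single libraries left out, and 1 with limma-voom. Of the 8 tested pathway genes, 0 called for Olig3 against GFP became 2 with no filter (Socs3, adjusted p = 0.0284, and Stat3, 0.00215), 1 with DESeq2 and 0 to 1 with single libraries left out. Both sets of more than 1 left-out library were chosen after seeing the data. Without the 3 libraries richest in Malat1, 1 Olig2 library is left, and without the 2 with fewest genes, 1 Olig3 library.

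Some log2 changes turned sign. Leaving out single libraries gave ranges for Olig2 against GFP of -0.28 to 0.29 for Lifr, -0.0836 to 0.36 for Jak1 and -0.61 to 0.44 for Jak2, for Olig3 against GFP of -0.99 to 0.20 for Lifr and -0.27 to 0.22 for Jak1, and for Olig3 against Olig2 of -1.05 to 0.13 for Lifr, -0.31 to 0.0207 for Il6st and -0.44 to 0.0675 for Jak1. Without the 2 libraries with fewest genes, Jak1 was 0.26 for Olig3 against GFP, and for Olig3 against Olig2 Socs3 was 0.42, Il6st 0.0624, Osmr 0.0591 and Jak1 0.10. Without the 3 richest in Malat1, Il6st was 0.16 for Olig3 against Olig2. The cause was not tested.

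Same-numbered libraries of different groups deviated together with r of -0.0634 to 0.113, not above 0.1 in every pair. This gave no sign of pairing by number, but with 3 libraries a group it cannot exclude pairing. With the replicate number as a block, 10 genes were called for Olig2 against GFP, 0 for Olig3 against GFP and 8 for Olig3 against Olig2, none of them 1 of the 10 genes described here, and for Olig2 against GFP Lifr was -0.0113 and Jak2 -0.14. Junb, Edn2 and Fgf2 had adjusted p of 0.0762, 0.0862 and 0.0873 under this block.

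With 3 libraries a group of 20-cycle cDNA, Socs3, Cntfr and Osmr with Olig3, and Lif and Cntf in every group, rest on few counts.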
